A study of Arabidopsis thaliana with 12 samples.

Results

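Superoxide dismutases turn superoxide into hydrogen peroxide, and catalases, ascorbate peroxidases and peroxiredoxins remove the peroxide. The 10 Arabidopsis genes described here, of 18542 genes listed in the series, were chosen by their gene identifiers as major members of this system: the copper/zinc superoxide dismutases CSD1 (AT1G08830), CSD2 (AT2G28190) and CSD3 (AT5G18100), the iron superoxide dismutase FSD1 (AT4G25100), the catalases CAT1 (AT1G20630), CAT2 (AT4G35090) and CAT3 (AT1G20620), the ascorbate peroxidases APX1 (AT1G07890) and APX2 (AT3G09640), and the seed peroxiredoxin PER1 (AT1G48130). Counts in all libraries were at hand for 9 of the 10, and APX2 was not analysed here. Across the 9 genes, FSD1 and PER1 varied most: their levels per exon length spanned 45.8-fold and 44.0-fold over the libraries, against 1.45-fold to 3.11-fold for the other 7.

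The series sequenced polyadenylated RNA of germinating Arabidopsis thaliana seeds to ask about the role of AGO4, a protein that binds small RNAs, when seeds germinate on salt. Seeds of the lines ago4-3 and ago4-2 and of wild-type Col-0 were sown on MS 1X medium with 100 mM NaCl or on the same medium without added salt as control, at 21 °C with 16 h of light. The 6 groups were therefore ago4-3 on NaCl and on control medium, ago4-2 on NaCl and on control medium, and Col-0 on NaCl and on control medium, with 2 libraries each. The age of the seeds at harvest and the nature of the ago4 alleles are not stated in the sources used.

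As background, CSD1 works in the cytosol, CSD2 in the chloroplast and CSD3 in the peroxisome, and each needs copper and zinc, with copper delivered to the enzymes by the chaperone CCS. When copper is scarce, the copper sensor SPL7, which binds GTAC motifs, switches plants from the copper/zinc enzymes to the iron enzyme FSD1, in part through miR398, a microRNA that directs cleavage of CSD1, CSD2 and CCS transcripts. In germinating oilseeds, peroxisomal catalases remove the peroxide that fatty acid breakdown releases. PER1 is a seed peroxiredoxin of embryo and aleurone that disappears after germination.

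The sequences that tie FSD1 and the copper/zinc enzymes to copper supply are the miR398 RNAs, their matches in the transcripts and the GTAC motifs before FSD1. The 3 mature miR398 RNAs annotated by RefSeq on TAIR10.1 shared 1 seed, bases 2 to 8, shown in capitals, and the b and c forms were identical.
miR398a-3p, chr2:1041012-1041032, plus strand: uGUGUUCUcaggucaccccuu
miR398b-3p, chr5:4691107-4691127, plus strand: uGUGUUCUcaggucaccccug
miR398c-3p, chr5:4694778-4694798, plus strand: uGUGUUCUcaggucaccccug

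The best match to miR398 in each member's transcripts was scored with 1 point for a mismatch or a bulged base and 0.5 for a G:U pair, so that a low score is a close match. The bulge was allowed after scoring without one had not set CSD2 apart. CSD1 and CSD2 scored 4, CCS scored 4.5, and the other members scored 6 to 8. Capitals in the sites mark Watson-Crick pairs with miR398. The CSD1 site lies in the 5′ untranslated region and spans an intron, and those of CSD2 and CCS are coding.
CSD1, chr1:2827177-2827685, plus strand: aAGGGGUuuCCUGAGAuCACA
CSD2, chr2:12015572-12015593, plus strand: ugcGGGUGACCUGgGAAaCAuA
CCS, chr1:4267521-4267542, minus strand: CAuuGGGaGACCUGgGAACACu

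The 250 bases before the start of the first annotated FSD1 transcript held 5 copies of GTAC, at 19, 130, 142, 159 and 181 bases before the start. GTAC is its own reverse complement, so each copy lies on both strands. At least 5 copies were present in 0.0438% of 27406 promoters of the same length, and 34.0% held at least 1. CAT2 and CSD1 held 2 copies, CSD3 and APX2 held 1, and the windows of CSD2, CAT1, CAT3, APX1 and PER1 held none of these letters. A stretch of 30 bases from the FSD1 window shows 2 of the copies in capitals, and part of that window is exonic in longer annotated FSD1 transcripts.
FSD1, chr4:12886824-12886853, minus strand: aaaatgatacgtcGTACtgccacatGTACg

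The PER1 promoter is shown because PER1 and the seed maturation transcripts were both highest in ago4-2 on NaCl, and promoters of many seed maturation genes carry ACGTG, the core recognised by abscisic acid-responsive bZIP factors. ACGTG was searched on both strands, and the 2 matches in PER1 overlap each other in a single palindrome, given in capitals. At least 1 match was found in 23.2% of the 27406 promoters, and at least 2 in 8.93%. The windows of CSD1 and APX2 also held 2 matches, and those of APX1 and CAT1 held 1. The seed motif CATGCA was not in this window. A match is a description of the letters and not of a bound site.
PER1, chr1:17780179-17780428, plus strand: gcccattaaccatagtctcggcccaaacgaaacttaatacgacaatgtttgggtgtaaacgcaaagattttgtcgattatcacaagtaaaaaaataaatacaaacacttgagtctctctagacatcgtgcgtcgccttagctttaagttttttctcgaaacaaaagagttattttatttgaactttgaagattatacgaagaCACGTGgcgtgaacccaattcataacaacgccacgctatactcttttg

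The libraries held 18168653 to 47517007 counts. AGO4 itself ranged from 0.549 to 1.35 CPM (library-scaled counts), in the ago4-3 libraries, from 35.4 to 49.1 CPM in the ago4-2 libraries and from 38.9 to 46.9 CPM in the Col-0 libraries, so ago4-2 carried its transcript at about the wild-type level. A list of 8 dry seed transcripts (cruciferins, oleosins and the LEA genes EM1 and EM6), all measured, summed to 2067 to 2250 CPM in ago4-3 on NaCl and 233 to 360 CPM in ago4-3 on control medium, 10644 to 11912 CPM and 1721 to 1898 CPM in ago4-2, and 957 to 1360 CPM and 261 to 291 CPM in Col-0. The endosperm gene EPR1, the only measured gene of its list of 3, stood at 172 and 173 CPM in ago4-2 on control medium and at 7.39 to 65.9 CPM in the other 10 libraries. The 2 measured root hair genes of a list of 4 summed to 0.581 to 7.10 CPM, and the share of organelle transcripts was 0.102% to 2.04%. All results below compare whole seeds or seedlings, in which fewer cells of a type and less RNA per cell cannot be told apart.

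Per exon length, CAT2 was the most abundant member, with a mean of 719 RPKM (CPM per kilobase of exon) and a range of 577 to 835 RPKM over the 12 libraries. CSD2 (mean 391 RPKM, 256 to 500), CSD1 (mean 303 RPKM, 217 to 389) and APX1 (mean 211 RPKM, 127 to 285) followed, with overlapping ranges. PER1 averaged 77.3 RPKM but ran from 6.54 to 288 RPKM. CAT3 (mean 52.1 RPKM), CSD3 (40.4 RPKM) and CAT1 (27.3 RPKM) were lower, and FSD1 had the lowest mean, 19.9 RPKM, with a range of 1.29 to 59.0 RPKM. The divisor was the merged exon length of all annotated transcripts, 3385 bases for CAT3 and 1553 for FSD1. Their first annotated transcripts have 1996 and 1182 bases. The order of the lower members and the size of the FSD1 and CAT3 shares below depend on this choice.

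**Figure D1:**
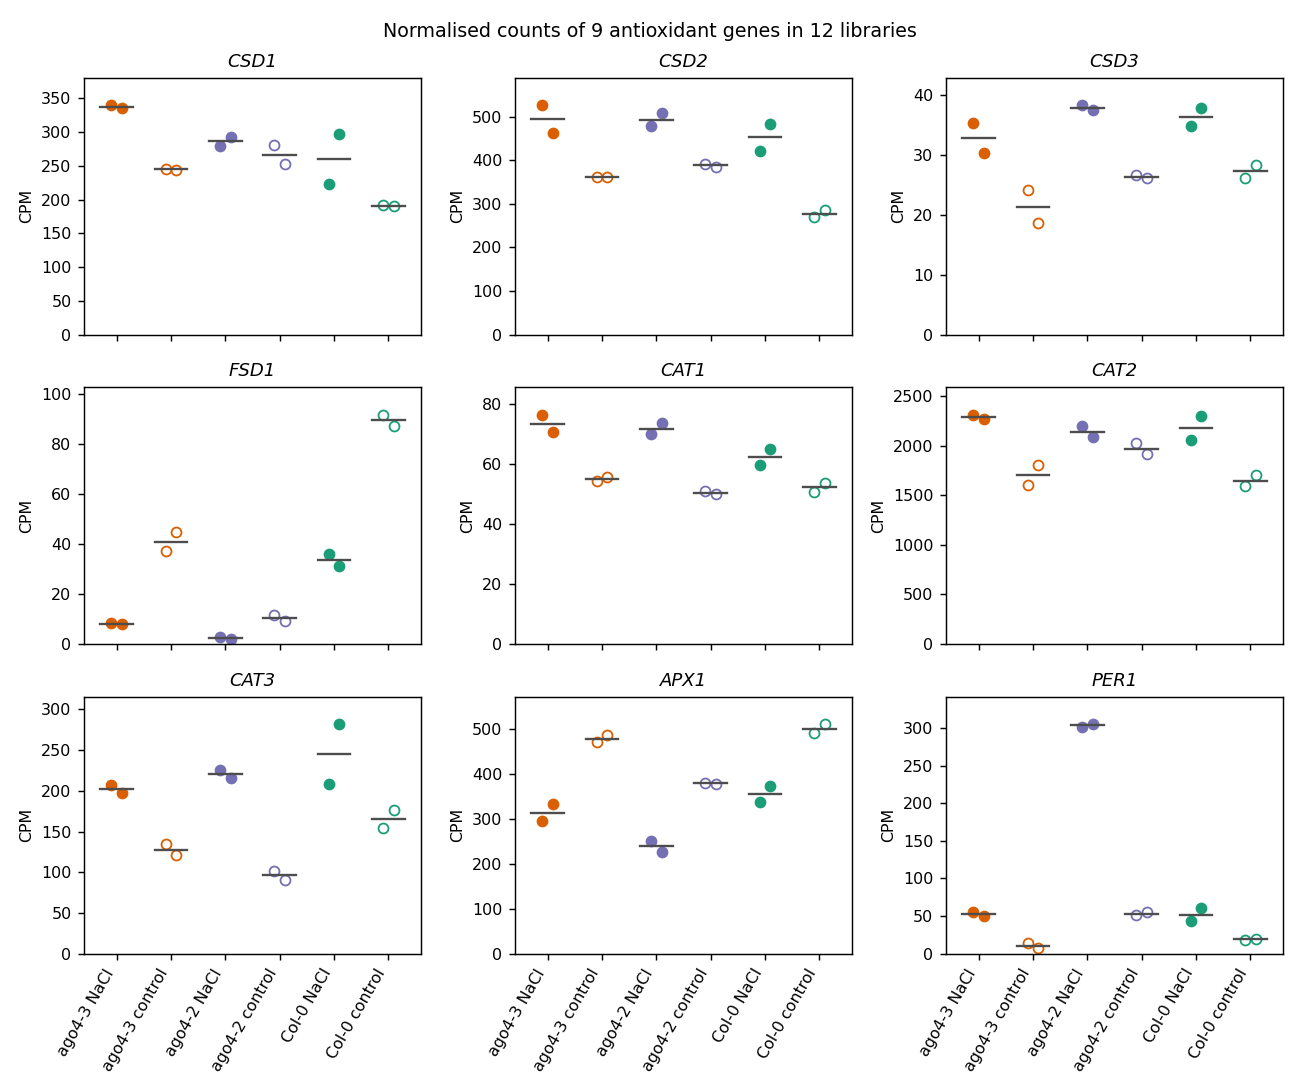
Each panel plots the CPM of 1 gene in the 12 libraries, with NaCl libraries filled, control libraries open and the group mean as a line. FSD1 is highest in Col-0 on control medium (91.7 and 87.2 CPM), and PER1 is highest in ago4-2 on NaCl (302 and 305 CPM).

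The first question is how salt changed these transcripts in each genotype. On NaCl, PER1, CSD2, CSD3 and CAT3 rose and FSD1 and APX1 fell in all 3 genotypes. In ago4-3, 7 members rose and 2 fell, while edgeR called 12.6% of the 17751 genes higher and 10.4% lower. In ago4-2, 5 rose and 2 fell, against 17.4% and 17.8% of all genes, and in Col-0, 5 rose and 2 fell, against 10.7% and 7.42%. In either direction, 23.0%, 35.1% and 18.2% of all genes were called in ago4-3, ago4-2 and Col-0. The median log2 fold change of the 9 members was 0.45 in ago4-3, 0.34 in ago4-2 and 0.41 in Col-0, and that of all genes was -0.01, -0.02 and 0.01. The count of 9 called members in ago4-3 was 5 without NaCl replicate 1, and the count of 7 in Col-0 was 4 without control replicate 1, without control replicate 2 or without NaCl replicate 2.

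**Figure D2:**
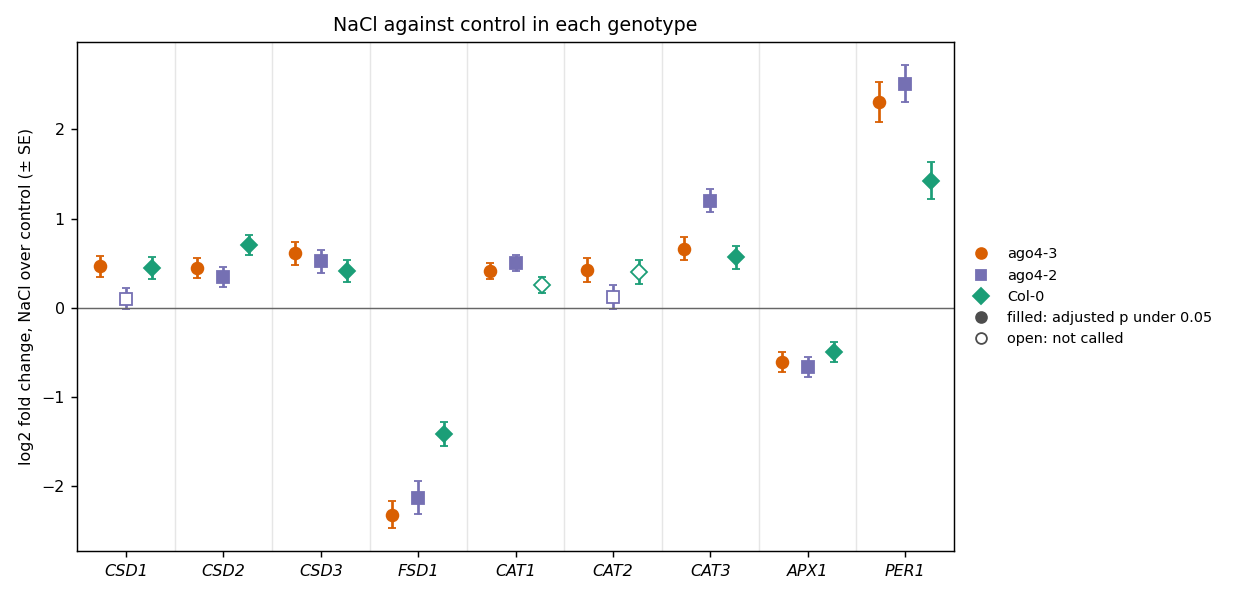
Log2 fold changes of NaCl over control, with SE, are drawn for 9 genes in ago4-3, ago4-2 and Col-0. Filled points have an edgeR adjusted p under 0.05. FSD1 and APX1 lie below 0 and PER1, CSD2, CSD3 and CAT3 above 0 in all 3 genotypes.

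FSD1, an iron enzyme, showed the deepest fall of the 9 under salt in every genotype. It had 8.36 and 8.03 CPM in ago4-3 on NaCl, against 37.3 and 44.7 CPM in ago4-3 on control medium. In ago4-2 it had 2.77 and 2.00 CPM on NaCl, from only 64 and 60 counts, against 11.6 and 9.27 CPM on control medium. In Col-0 it had 35.9 and 31.3 CPM on NaCl, against 91.7 and 87.2 CPM on control medium. The salt and control libraries did not overlap in any genotype. The edgeR log2 fold change was -2.32 ± 0.15 in ago4-3 (adjusted p = 1.08e-07), -2.13 ± 0.18 in ago4-2 (adjusted p = 7.23e-07) and -1.41 ± 0.14 in Col-0 (adjusted p = 7.22e-06), that is 5.0-fold, 4.38-fold and 2.66-fold lower on NaCl. These 3 calls held in the 6 other ways of processing and with each library left out in turn.

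The FSD1 salt effect in the mutants was larger than in Col-0 by point estimate, but the difference was not called. It was -0.91 ± 0.20 log2 units for ago4-3 minus Col-0 (edgeR adjusted p = 0.157) and -0.72 ± 0.23 for ago4-2 minus Col-0 (adjusted p = 0.0923). DESeq2 called the first of these (adjusted p = 0.0115), and edgeR called the second without ago4-2 control replicate 2 (log2 -0.89, adjusted p = 0.0469).

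Both mutants held less FSD1 than Col-0 on either medium, and FSD1 was the only member that edgeR called in ago4-3 against Col-0. On control medium, where edgeR called 1.66% of all genes in ago4-3 and 8.44% in ago4-2, FSD1 was lower than in Col-0 by a log2 fold change of -1.13 ± 0.14 in ago4-3 (adjusted p = 0.00027) and -3.11 ± 0.15 in ago4-2 (adjusted p = 2.66e-09). On NaCl, where 1.19% and 29.3% of all genes were called, it was -2.04 ± 0.15 in ago4-3 (adjusted p = 1.23e-06) and -3.83 ± 0.17 in ago4-2 (adjusted p = 1.07e-09), a 14.2-fold lower level in ago4-2. In order of group mean, Col-0 on control medium (89.4 CPM) was followed by ago4-3 on control medium (41.0 CPM), Col-0 on NaCl (33.6 CPM), ago4-2 on control medium (10.4 CPM), ago4-3 on NaCl (8.19 CPM) and ago4-2 on NaCl (2.39 CPM). The libraries of neighbouring groups in this order did not overlap, although the lowest ago4-3 control library (37.3 CPM) and the highest Col-0 NaCl library (35.9 CPM) were close.

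FSD1 lies at chr4:12884300-12887011 (TAIR10.1), and AGO4 lies on chromosome 2. In ago4-2 on control medium, 46 genes differed from Col-0 by a log2 fold change of at least 5. Of these, 18 were on chromosome 4, 15 on chromosome 2, 9 on chromosome 3, 3 on chromosome 1 and 1 on chromosome 5. The share of all tested genes on each chromosome was not worked out, so these counts are not read as a feature of chromosome 4. The nearest of the 46 before FSD1, AT4G25020, lay 0.0240 Mb away. AT4G25020 had 0.129 and 0 CPM in ago4-2 on control medium and 0 CPM in both NaCl libraries, against 0.994 to 2.15 CPM in the 4 Col-0 libraries and 1.02 to 2.20 CPM in the 4 ago4-3 libraries. The nearest such gene after FSD1, AT4G29760, lay 1.69 Mb away, so the closeness rests on 1 weakly expressed gene. For FSD1 in ago4-2, an effect of the ago4-2 allele and one of other sequence near FSD1, not linked to AGO4, cannot be told apart. All 8 dry seed genes were also higher in ago4-2 than in Col-0, with median log2 differences of 2.52 on control medium and 3.20 on NaCl. Of all genes, 8.44% and 29.3% were called there. Whether the stage of germination has a part in the FSD1 difference was not tested. In ago4-3, 4 of 17 such genes were on chromosome 4, none nearer to FSD1 than 1.19 Mb.

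The genes whose pattern over the 6 group means was nearest to that of FSD1 were AT3G49160, AT4G29905 and AT2G04500, which differed from it by a root mean square of 0.48, 0.57 and 0.59 log2 units after centring each gene. FSD1 itself spanned 5.24 log2 units over the same 6 means. All 3 were lower expressed: AT3G49160 averaged 9.23 CPM in Col-0 on control medium and 0.517 CPM in ago4-2 on NaCl.

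The copper/zinc enzymes moved the other way, by smaller amounts. CSD2, the chloroplast enzyme, had 527 and 463 CPM in ago4-3 on NaCl, against 363 and 362 CPM on control medium. In ago4-2 it had 479 and 508 CPM on NaCl, against 392 and 386 CPM on control medium, and in Col-0 422 and 482 CPM on NaCl, against 270 and 285 CPM on control medium. Salt libraries were above control libraries in each genotype. The edgeR log2 fold change was 0.45 ± 0.11 in ago4-3 (adjusted p = 0.00989), 0.34 ± 0.11 in ago4-2 (adjusted p = 0.0282) and 0.70 ± 0.11 in Col-0 (adjusted p = 0.000569). The ago4-3 call was lost without control replicate 1, control replicate 2 or NaCl replicate 1 (adjusted p = 0.0555, 0.0621 and 0.110). The ago4-2 call was lost without control replicate 2, NaCl replicate 1 or NaCl replicate 2 (adjusted p = 0.0682, 0.0701 and 0.157) and in a fit of the ago4-2 libraries alone (adjusted p = 0.103).

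CSD1, the cytosolic enzyme, had 340 and 335 CPM in ago4-3 on NaCl, against 245 and 244 CPM on control medium, a rise of 0.46 ± 0.12 on the log2 scale (edgeR adjusted p = 0.0128). In Col-0 it had 223 and 297 CPM on NaCl, against 192 and 190 CPM on control medium, a rise of 0.44 ± 0.12 (adjusted p = 0.0194). In ago4-2 the groups overlapped, with 280 and 293 CPM on NaCl and 280 and 253 CPM on control medium (log2 0.10 ± 0.12, adjusted p = 0.551). The Col-0 call was lost without control replicate 1, control replicate 2 or NaCl replicate 2 (adjusted p = 0.105, 0.130 and 0.224), and the log2 value was 0.22 without the last. The ago4-3 call was lost without any 1 of its 4 libraries (adjusted p = 0.0512 to 0.0736).

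CSD3, the peroxisomal enzyme, had 35.3 and 30.3 CPM in ago4-3 on NaCl, against 24.1 and 18.6 CPM on control medium. It had 38.3 and 37.4 CPM in ago4-2 on NaCl, against 26.6 and 26.1 CPM on control medium, and 34.9 and 37.7 CPM in Col-0 on NaCl, against 26.2 and 28.4 CPM on control medium. The groups were apart in each genotype. The edgeR log2 fold change was 0.61 ± 0.13 in ago4-3 (adjusted p = 0.00355), 0.52 ± 0.13 in ago4-2 (adjusted p = 0.00568) and 0.41 ± 0.13 in Col-0 (adjusted p = 0.0330). The Col-0 call was lost without any 1 of its 4 libraries (adjusted p = 0.0590 to 0.223), and the ago4-3 call without NaCl replicate 1 (adjusted p = 0.0507). CSD1, CSD3 and CAT2 overlap antisense genes by 211, 142 to 405 and 95 bases, and without a stated strand setting the reads of the overlaps cannot be told apart.

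The share of FSD1 in these 4 dismutase transcripts was lower on NaCl than on control medium in each genotype. It was also lower in both mutants than in Col-0 on either medium. Of their summed RPKM, FSD1 made up 0.572% and 0.594% in ago4-3 on NaCl, against 3.52% and 4.24% in ago4-3 on control medium. It made up 0.215% and 0.148% in ago4-2 on NaCl, against 1.02% and 0.856% on control medium, and 3.19% and 2.32% in Col-0 on NaCl, against 10.3% and 9.64% on control medium. The summed level itself was 870 to 942 RPKM in ago4-3 on NaCl, against 677 to 682 RPKM on control medium. In ago4-2 the sum was 828 to 869 RPKM on NaCl, against 697 to 736 RPKM on control medium, and in Col-0 726 to 869 RPKM, against 571 to 582 RPKM. These sums were described and not tested. They leave out the iron dismutases FSD2 and FSD3, so the shares are not those of all iron dismutase transcripts. Over the 6 group means FSD3 ran from 138 to 236 RPKM and FSD2 from 47.15 to 59.58 RPKM, against 1.54 to 57.6 RPKM for FSD1.

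**Figure D3:**
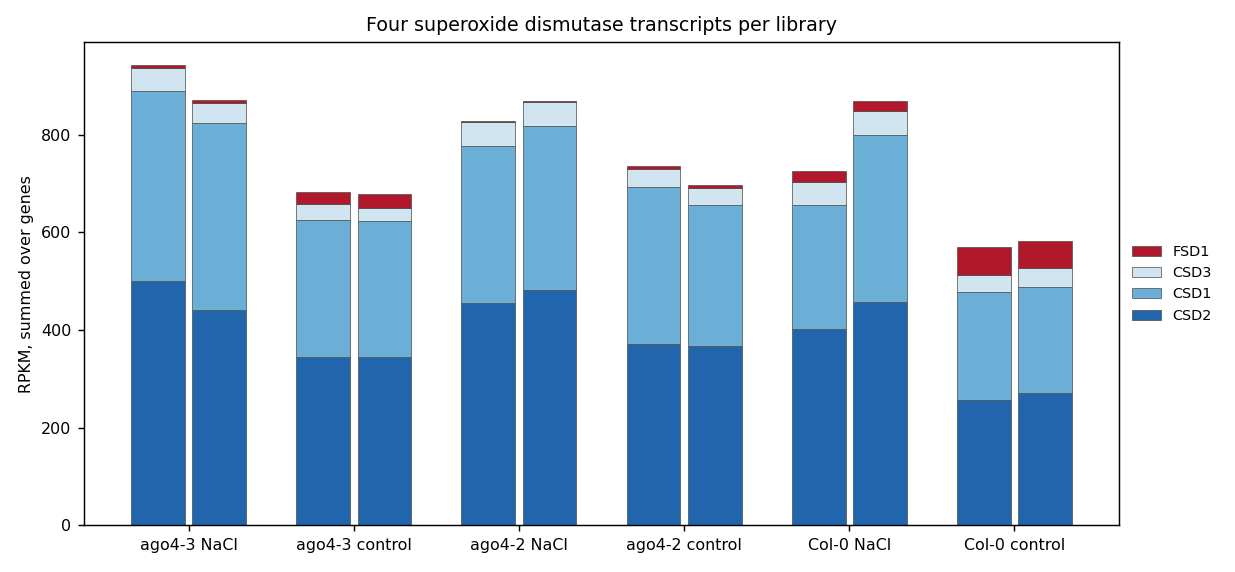
Bars give the RPKM of CSD2, CSD1, CSD3 and FSD1 stacked for each of the 12 libraries. The FSD1 segment is 9.64% to 10.3% of the bar in Col-0 on control medium and 0.148% to 0.215% in ago4-2 on NaCl.

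Transcripts of copper use and of the other dismutases were read beside these. CCS rose with salt in all 3 genotypes, by log2 0.84 ± 0.11 in ago4-3, 0.67 ± 0.11 in ago4-2 and 0.79 ± 0.11 in Col-0 (edgeR adjusted p = 6.59e-05, 0.000253 and 0.000162). Its levels were 182 and 156 CPM in ago4-3 on NaCl, against 93.6 and 95.5 CPM on control medium, and 127 and 155 CPM in Col-0 on NaCl, against 77.5 and 86.2 CPM on control medium. The 3 known targets of miR398 whose sites are shown above were higher on NaCl in ago4-3 and Col-0. Of the 5 genes in the list of other dismutases and CCS, 4 rose and none fell in ago4-3, 2 rose and 1 fell in ago4-2, and 2 rose and none fell in Col-0. Among all genes, 23.0%, 35.1% and 18.2% were called with salt in ago4-3, ago4-2 and Col-0. The chloroplast iron dismutase FSD3 rose in ago4-3 (log2 0.56 ± 0.10, adjusted p = 0.0012) and in Col-0 (log2 0.67 ± 0.10, adjusted p = 0.000435) and stood at 0.23 ± 0.10 in ago4-2 (adjusted p = 0.102).

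MIR398C, named after its values were seen, was the miR398 locus with counts in all libraries. It ranged from 89.1 to 111 CPM, with a median of 98.9 CPM, and its log2 fold changes lay between -0.22 and 0.23 in the 11 comparisons. edgeR called 0 of the 11, with 0 at an unadjusted p under 0.05, and DESeq2 also called 0. These counts come from polyadenylated RNA, and the mature microRNA was not measured. Per exon length the locus averaged 954.3 RPKM in Col-0 on control medium, above the 595.5 RPKM of CAT2. Overlaps of this locus with other transcripts were not checked, and the strand setting is not given. The counts therefore cannot be assigned to the miR398c precursor alone.

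Of the copper status list, 9 of 13 genes were measured: 3 rose and none fell in ago4-3, 2 rose and 1 fell in ago4-2, and 4 rose and 1 fell in Col-0. CCS, already counted with the other dismutases, is also in this list and is among the genes that rose in each genotype. The shares of all genes called with salt were 23.0%, 35.1% and 18.2% in the same order. PETE2, the gene of a chloroplast copper protein, plastocyanin, had 40.9 and 45.4 CPM in ago4-2 on NaCl, against 113 and 90.6 CPM on control medium, and 119 and 129 CPM in Col-0 on NaCl, against 78.4 and 69.0 CPM on control medium. It fell in ago4-2 (log2 -1.24 ± 0.12, edgeR adjusted p = 2.61e-06) and rose in Col-0 (log2 0.75 ± 0.12, adjusted p = 0.000468), and the difference between these salt effects was called (log2 -1.98 ± 0.17, adjusted p = 1.82e-05). In ago4-3 the change was 0.12 ± 0.12 (adjusted p = 0.523). Plastocyanin also serves photosynthesis, and a list of 5 seedling photosynthesis genes, all measured, was read beside it. With salt, 4 of these rose and 1 fell in ago4-3, 2 fell and none rose in ago4-2, and 4 rose and none fell in Col-0, with median log2 fold changes of 1.41, 0.07 and 2.03. For the salt effect of ago4-2 minus Col-0, where 4.43% of all genes were called, 4 of the 5 were lower and the median was -1.96. The list went with PETE2 in Col-0 and in this difference. In ago4-3 most of the list rose where PETE2 was not called, and in ago4-2 the list median was 0.07 where PETE2 fell. The part of these genes in the PETE2 result was not tested.

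Among the catalases, CAT3 rose with salt in all 3 genotypes, and CAT1 and CAT2 rose in some. CAT3 had 207 and 198 CPM in ago4-3 on NaCl, against 134 and 121 CPM on control medium. It had 225 and 216 CPM in ago4-2 on NaCl, against 102 and 90.7 CPM on control medium, and 209 and 282 CPM in Col-0 on NaCl, against 155 and 177 CPM on control medium. The groups did not overlap in any genotype. The edgeR log2 fold change was 0.66 ± 0.13 in ago4-3 (adjusted p = 0.00185), 1.20 ± 0.13 in ago4-2 (adjusted p = 7.41e-06) and 0.57 ± 0.13 in Col-0 (adjusted p = 0.00646). The Col-0 call was lost without control replicate 1 (log2 0.47, adjusted p = 0.0936) or NaCl replicate 2 (log2 0.33, adjusted p = 0.0878).

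CAT3 was also lower in ago4-2 than in Col-0 on control medium (log2 -0.79 ± 0.13, edgeR adjusted p = 0.00133), and stood at -0.15 ± 0.13 on NaCl (adjusted p = 0.390). The difference between the salt effects of ago4-2 and Col-0, 0.64 ± 0.18, was not called (adjusted p = 0.0632). DESeq2 called it (adjusted p = 0.0123), as did edgeR without Col-0 NaCl replicate 2 (log2 0.87, adjusted p = 0.0105) or ago4-2 control replicate 1 (log2 0.71, adjusted p = 0.0333).

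CAT1 had 76.4 and 70.5 CPM in ago4-3 on NaCl, against 54.4 and 55.6 CPM on control medium. It had 69.9 and 73.5 CPM in ago4-2 on NaCl, against 50.9 and 50.1 CPM on control medium, and 59.6 and 64.8 CPM in Col-0 on NaCl, against 50.7 and 53.8 CPM on control medium. It rose in ago4-3 (log2 0.42 ± 0.09, edgeR adjusted p = 0.00358) and ago4-2 (log2 0.51 ± 0.09, adjusted p = 0.000524). In Col-0 the groups were also apart, but the log2 fold change of 0.25 ± 0.09 was not called (adjusted p = 0.0588), except without NaCl replicate 1 (log2 0.32, adjusted p = 0.0466).

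CAT2, the main catalase of leaves and the most abundant member here, had 2311 and 2268 CPM in ago4-3 on NaCl, against 1608 and 1805 CPM on control medium (log2 0.42 ± 0.14, edgeR adjusted p = 0.0373). It had 2197 and 2086 CPM in ago4-2 on NaCl, against 2026 and 1911 CPM on control medium (log2 0.12 ± 0.14, adjusted p = 0.532). In Col-0 it had 2056 and 2303 CPM on NaCl, against 1596 and 1699 CPM on control medium (log2 0.40 ± 0.14, adjusted p = 0.0546). The libraries of the 2 media did not overlap in any genotype. The ago4-3 call was lost without any 1 of its 4 libraries (adjusted p = 0.0783 to 0.204), and the Col-0 change was called by DESeq2 (adjusted p = 0.000431) and without NaCl replicate 1 (adjusted p = 0.0462). Over all libraries CAT2 made up 88.1% to 93.3% of the summed RPKM of the 3 catalases, and CAT3 3.62% to 8.81%.

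NCA1, a chaperone needed for catalase activity, rose by log2 0.71 ± 0.09 in ago4-3, 0.69 ± 0.09 in ago4-2 and 0.66 ± 0.09 in Col-0 (edgeR adjusted p = 5.94e-05, 3.91e-05 and 0.000149). Its levels were 103 and 90.8 CPM in ago4-3 on NaCl, against 57.5 and 61.3 CPM on control medium. CAT2 and CAT3 are known to cycle with the circadian clock, and the clock gene LHY differed sharply between media. LHY had 1.65 and 1.58 CPM in ago4-3 on NaCl, against 38.3 and 36.2 CPM on control medium, 2.60 and 2.00 CPM in ago4-2 on NaCl, against 20.9 and 27.8 CPM, and 1.68 and 0.922 CPM in Col-0 on NaCl, against 22.1 and 23.6 CPM. The sources used here do not give the hour of harvest, and the part of the clock in the catalase results was not tested.

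APX1, the cytosolic ascorbate peroxidase, was lower on NaCl in every genotype. It had 295 and 333 CPM in ago4-3 on NaCl, against 472 and 486 CPM on control medium. It had 252 and 228 CPM in ago4-2 on NaCl, against 381 and 378 CPM on control medium, and 337 and 373 CPM in Col-0 on NaCl, against 492 and 511 CPM on control medium. The salt libraries were below the control libraries throughout. The edgeR log2 fold change was -0.61 ± 0.11 in ago4-3 (adjusted p = 0.00109), -0.66 ± 0.11 in ago4-2 (adjusted p = 0.000348) and -0.50 ± 0.11 in Col-0 (adjusted p = 0.00559). The Col-0 call was lost without control replicate 2 (adjusted p = 0.0627).

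The other genes of the ascorbate pathway were counted by list. Of 5 measured further ascorbate peroxidases of a list of 6, none was called in ago4-3, APX3 fell in ago4-2 (log2 -0.60) and the organellar SAPX fell in Col-0 (log2 -0.27, lost without any 1 library, adjusted p = 0.0795 to 0.231). None of the 5 rose in any genotype. Of 10 genes that recycle ascorbate and glutathione, 2 rose and 2 fell in ago4-3, 1 rose and 4 fell in ago4-2, and 1 rose and 1 fell in Col-0. The monodehydroascorbate reductase MDAR2 fell in each genotype, with log2 fold changes of -0.54 in ago4-3, -0.41 in ago4-2 and -0.43 in Col-0. Its call was lost in ago4-3 without control replicate 2 or NaCl replicate 1 (edgeR adjusted p = 0.0632 and 0.13), in ago4-2 without control replicate 1 or NaCl replicate 2 (adjusted p = 0.154 and 0.226), and in Col-0 without any 1 of its 4 libraries (adjusted p = 0.0953 to 0.215). The weakly expressed MDAR3, named after its values were seen, had 2.24 and 4.29 CPM in ago4-3 on NaCl, against 6.95 and 6.30 CPM on control medium. Its log2 fold change was -1.0 ± 0.29 in ago4-3, -0.85 ± 0.32 in ago4-2 and -0.68 ± 0.28 in Col-0 (edgeR adjusted p = 0.021, 0.0474 and 0.113), a larger fall by point estimate than that of APX1. The MDAR3 call in ago4-3 was lost without control replicate 1, control replicate 2 or NaCl replicate 1 (adjusted p = 0.096, 0.0564 and 0.197), and that in ago4-2 without control replicate 1, control replicate 2 or NaCl replicate 2 (adjusted p = 0.0544, 0.184 and 0.314). Of 7 genes of ascorbate and glutathione synthesis, 1 fell in ago4-3, 1 rose and 1 fell in ago4-2, and 1 fell in Col-0. Beside the counts of these lists, 23.0%, 35.1% and 18.2% of all genes were called with salt in ago4-3, ago4-2 and Col-0.

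PER1, the 1-cysteine peroxiredoxin of seeds, rose most of the 9 under salt. It had 55.9 and 50.4 CPM in ago4-3 on NaCl, against 14.0 and 6.92 CPM on control medium. It had 302 and 305 CPM in ago4-2 on NaCl, against 50.8 and 55.4 CPM on control medium, and 42.9 and 60.4 CPM in Col-0 on NaCl, against 18.4 and 20.2 CPM on control medium. The groups were apart in each genotype. The edgeR log2 fold change was 2.31 ± 0.22 in ago4-3 (adjusted p = 3.96e-06), 2.51 ± 0.20 in ago4-2 (adjusted p = 4.64e-07) and 1.43 ± 0.20 in Col-0 (adjusted p = 0.000237), that is 4.94-fold, 5.71-fold and 2.69-fold. These 3 calls held in the 6 other ways of processing and with each library left out in turn.

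Relative to Col-0, PER1 was higher in ago4-2 on both media. On control medium the log2 fold change was 1.47 ± 0.21 (edgeR adjusted p = 0.00036), and on NaCl it was 2.55 ± 0.20 (adjusted p = 4.68e-07), a 5.87-fold higher level. In ago4-3 it was -0.84 ± 0.22 on control medium (adjusted p = 0.0851) and 0.04 ± 0.20 on NaCl (adjusted p = 0.955). Without ago4-3 control replicate 1, which held 14.0 CPM, the control difference was -1.46 and was called (adjusted p = 0.00304). The authors' deposited table gave that difference as -0.84 on the log2 scale with a false discovery rate of 1.03e-06. For some other members the deposited rates did not reach the threshold where edgeR made a call here, as given under the dependence on processing. PER1 in ago4-2 on control medium, ago4-3 on NaCl and Col-0 on NaCl had overlapping levels between 42.9 and 60.4 CPM.

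PER1 and the dry seed transcripts were both highest in ago4-2 on NaCl, but they did not move together in every comparison. The 8 genes summed to 10644 and 11912 CPM in ago4-2 on NaCl, the group with the highest PER1, and to 233 CPM in ago4-3 control replicate 2, the library with the lowest. With salt, 23.0%, 35.1% and 18.2% of all genes were called in ago4-3, ago4-2 and Col-0. Of the 8 dry seed genes, 6 rose and none fell in ago4-3, 7 rose and 1 fell in ago4-2, and 5 rose and 1 fell in Col-0. Their median log2 fold changes were 2.13, 2.26 and 1.18. The gene that fell was the cruciferin CRB, by log2 -0.82 ± 0.28 in ago4-2 and -1.11 ± 0.33 in Col-0 (edgeR adjusted p = 0.0317 and 0.032), against -0.81 ± 0.33 in ago4-3 (adjusted p = 0.0893). The CRB call was lost in ago4-2 without control replicate 1, NaCl replicate 1 or NaCl replicate 2 (adjusted p = 0.118, 0.137 and 0.129), and in Col-0 without control replicate 2, NaCl replicate 1 or NaCl replicate 2 (adjusted p = 0.275, 0.207 and 0.0551). DESeq2 called it in neither (adjusted p = 0.147 and 0.0589). Without control replicate 2 the value in ago4-3 was -1.27 and was called (edgeR adjusted p = 0.00736). In ago4-2 against Col-0, all 8 dry seed genes were higher on both media, as PER1 was. Of all genes, 8.44% were called there on control medium and 29.3% on NaCl. In ago4-3 against Col-0 on NaCl, where 1.19% of all genes were called, 4 of the 8 were higher and none lower. Their median was 0.73, where PER1 stood at 0.04. On control medium none of the 8 was called in ago4-3 and their median was 0.36, where PER1 stood at -0.84. The 3 genes with the pattern nearest to that of PER1 over the 6 group means were AT1G54860, AT2G21820 and AT1G54870, at root mean square differences of 0.18, 0.28 and 0.28 log2 units, where PER1 spanned 4.94. AT1G54870 averaged 487 CPM in ago4-2 on NaCl, against 102 CPM on control medium, and 73.5 CPM in Col-0 on NaCl, against 32.2 CPM on control medium. Whether the stage of germination has a part in the PER1 result was not tested.

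**Figure D4:**
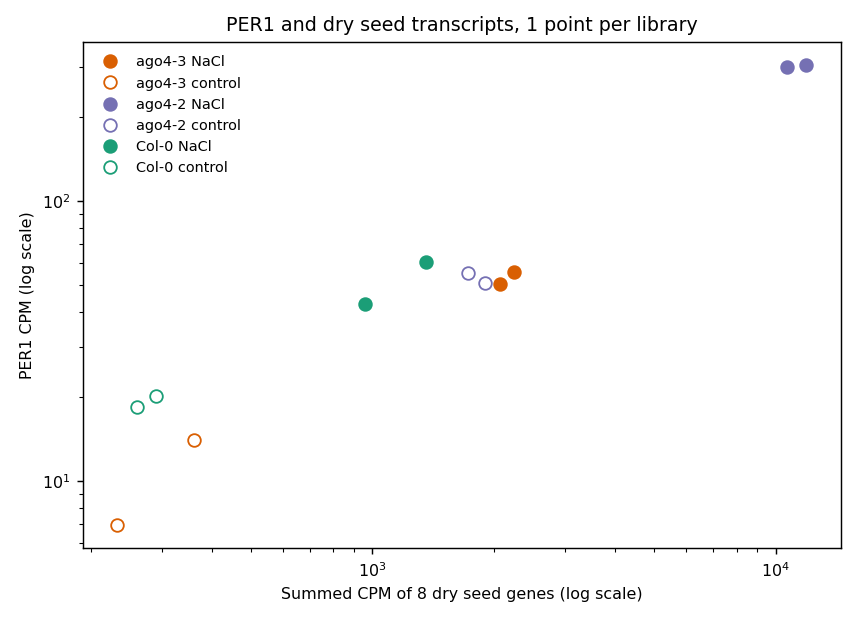
Each point is 1 library, with PER1 CPM against the summed CPM of 8 dry seed genes on log axes, NaCl filled and control open. Both ago4-2 NaCl libraries stand apart at 302 and 305 CPM of PER1, and ago4-3 control replicate 2 is lowest at 6.92 CPM.

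ABI5, a bZIP factor of abscisic acid signalling in seeds, rose with salt in ago4-2 (log2 0.81) and ago4-3 (log2 0.55) and stood at 0.09 in Col-0. It belongs, with NCA1 and LHY, to a list of 10 regulators of members, all measured. Of that list, 3 rose and 5 fell in ago4-3, 2 rose and 4 fell in ago4-2, and 1 rose and 5 fell in Col-0. The list medians were log2 -0.498, -0.165 and -0.805 in the same order. Of 7 measured peroxiredoxins of a list of 8 other than PER1, 2 rose and none fell in ago4-3, 1 rose and 2 fell in ago4-2, and 5 rose and none fell in Col-0. The mitochondrial PRXIIF rose in all 3 genotypes, by log2 0.72 in ago4-3, 0.56 in ago4-2 and 0.51 in Col-0, and the last call was lost without control replicate 1 (adjusted p = 0.0554). Of 7 measured glutathione peroxidase-like genes of a list of 8, 2 rose and 2 fell in ago4-3, 1 rose and 1 fell in ago4-2, and 1 rose and 2 fell in Col-0. Of 12 measured genes of a list of 15 superoxide and peroxide sources (NADPH oxidases, glycolate oxidases and acyl-CoA oxidases), 1 rose and 2 fell in ago4-3, 2 rose and 3 fell in ago4-2, and 2 rose and none fell in Col-0. With salt, 23.0%, 35.1% and 18.2% of all genes were called in these genotypes. The counts of sources lay near those shares and are not read as a response of the list.

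The second question is how the mutants differed from Col-0 on the same medium. On control medium, 1 member was called in ago4-3, where 1.66% of all genes were, and 6 in ago4-2, where 8.44% were. On NaCl, 1 member was called in ago4-3 (1.19% of all genes) and 3 in ago4-2 (29.3% of all genes, and 14.4% lower). The Col-0 libraries are shared between the comparisons of both mutants. Beside FSD1, PER1 and CAT3, ago4-2 on control medium had more CSD1 (log2 0.48 ± 0.12, edgeR adjusted p = 0.0241), more CSD2 (0.49 ± 0.11, adjusted p = 0.0152) and less APX1 (-0.40 ± 0.11, adjusted p = 0.0360). On NaCl it again had less APX1 (-0.57 ± 0.11, adjusted p = 0.00151), while CSD1 and CSD2 stood at 0.14 and 0.12 (adjusted p = 0.412 and 0.432).

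The 6 calls in ago4-2 on control medium became 3, those of FSD1, CAT3 and PER1, without either Col-0 control library, and when the fit held only the libraries compared. CSD1 and APX1 were also lost without ago4-2 control replicate 1 (adjusted p = 0.113 and 0.0904). In ago4-3, CSD1, CSD2 and CAT3 stood at 0.36 ± 0.12, 0.38 ± 0.11 and -0.37 ± 0.13 on control medium (edgeR adjusted p = 0.191, 0.125 and 0.197). CSD2 was called there by DESeq2 (adjusted p = 0.00668), and a fit of the compared libraries alone called CSD1, CSD2 and CAT3 (adjusted p = 0.0255, 0.0216 and 0.0490). On NaCl, CSD1 in ago4-3 stood at 0.38 ± 0.12 (adjusted p = 0.218) and was called without Col-0 NaCl replicate 2 (log2 0.60, adjusted p = 0.0244), and so was CSD1 in ago4-2 (log2 0.36, adjusted p = 0.0347).

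**Figure D5:**
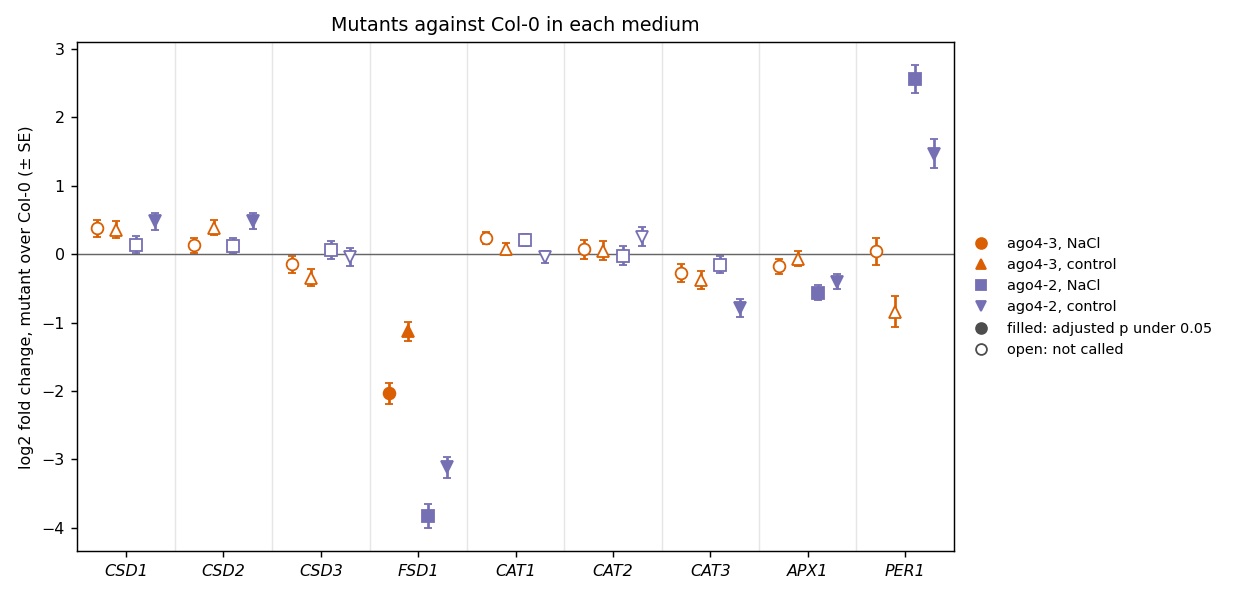
Log2 fold changes of each mutant over Col-0, with SE, are drawn for 9 genes on NaCl and on control medium, filled where the edgeR adjusted p was under 0.05. FSD1 lies between -3.83 and -1.13 in the 4 comparisons, and PER1 is filled only in ago4-2.

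The alleles were also set against each other. On control medium, ago4-3 had more FSD1 than ago4-2 (log2 1.99 ± 0.15, edgeR adjusted p = 6.05e-07) and less PER1 (-2.31 ± 0.22, adjusted p = 8.83e-06), 2 members where 9.00% of all genes were called. On NaCl, where 20.9% of all genes were called, ago4-3 again had more FSD1 (1.79 ± 0.18, adjusted p = 8.27e-06) and less PER1 (-2.51 ± 0.20, adjusted p = 9.66e-07), and more APX1 (0.39 ± 0.11, adjusted p = 0.0212). The APX1 call was lost without ago4-2 NaCl replicate 1, ago4-2 NaCl replicate 2 or ago4-3 NaCl replicate 2 (adjusted p = 0.0582, 0.187 and 0.147). On control medium CAT3 stood at 0.41 ± 0.13 and APX1 at 0.34 ± 0.11 (edgeR adjusted p = 0.0627 and 0.0741), and DESeq2 called both (adjusted p = 0.0221 and 0.00818).

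The third question is whether a mutation changed the response to salt. For ago4-2 minus Col-0, edgeR called 1 member, PER1, where 4.43% of all genes were called, with a difference between the log2 salt effects of 1.09 ± 0.28 (adjusted p = 0.0428). That call was lost with DESeq2 (adjusted p = 0.126) and without either Col-0 control library, without Col-0 NaCl replicate 1, or without either ago4-2 NaCl library (adjusted p = 0.114 to 0.168), while the difference stayed between 0.89 and 1.16. For ago4-3 minus Col-0, 0 members were called by edgeR, where 0.0225% of all genes were. At an unadjusted p under 0.05 there were 2, FSD1 and PER1, and DESeq2 called 1, FSD1. PER1 in ago4-3 had a difference of 0.88 ± 0.30 (adjusted p = 0.624), which was 1.51 and was called without ago4-3 control replicate 1 (adjusted p = 0.0441).

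PER1 lies at chr1:17780429-17781727 (TAIR10.1). In ago4-2 the nearest gene before it with a log2 fold change of at least 5 from Col-0 was the pseudogene AT1G47950, 0.105 Mb away, with 2.00 and 1.53 CPM in ago4-2 on control medium, against 0.0384 and 0 CPM in Col-0 on control medium. Chromosome 1 held 3 of the 46 such genes. CSD2 lies 0.478 Mb from AGO4, the gene that names the mutants, and was not called between ago4-3 and Col-0 on either medium by edgeR over all 6 groups, while the other fits given above called it on control medium.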

How the data were processed

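Polyadenylated RNA of 12 libraries, 2 in each of 6 groups, was compared. The authors deposited 9 tables, one for each comparison, with raw read counts per gene, their log2 fold changes, and their p-values with false discovery rates, per the file headers. The submitters' processing notes name build TAIR10 and the tools SAMtools, Picard, edgeR and DESeq; the aligner, counting tool, strand setting and versions are not given in the sources used here. In all, 36 further library columns were not used. Each library stood in 3 tables, and 0 values disagreed between tables. Of 18542 genes, 17751 had counts in all libraries and were tested, 791 did not, and 147 identifiers of single transcripts were left out. Totals were 18168653 to 47517007 counts. Of counts from 1 to 20, 72.4% to 87.7% were even numbers, so single fragments may have been counted as 2 reads; small counts are then less precise than they look.

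CPM used TMM library sizes, and RPKM divided CPM by the merged exon length. edgeR 4.0.16 (R 4.3.3, limma 3.58.1) quasi-likelihood F tests, two-sided, used 1 coefficient per group and 11 contrasts, with Benjamini-Hochberg adjustment over 17751 genes and calls at an adjusted p under 0.05. filterByExpr removed 0 further genes. The labels do not say whether the 2 libraries of a group are separate cultures, and the p-values speak only of the spread among these libraries, which may be technical. The 6 other ways of processing were DESeq2 size factors within edgeR, DESeq2 1.42.0, no filter, at least 10 counts in all 12 libraries, only the groups compared, and a replicate block; each library was also left out in turn. Members and gene lists were chosen with earlier results of these data known. Named genes were the members, up to 4 genes per list by the smallest adjusted p in a salt effect, the 3 genes most alike to members spanning at least 2 log2 units, and the nearest genes with a log2 change of at least 5. Levels of the marker lists are descriptions, and CRB, EPR1, MDAR3, AGO4 and MIR398C were named outside that rule. Sequences and positions come from RefSeq on TAIR10.1. Of the transcript stretches of 50 bases in each member, 0% occurred in another member. Python 3.11.15, pandas 2.3.3 and matplotlib 3.10.9 were used for summaries and plots.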

Additional observations from a re-analysis of the deposited data

Results flagged for a closer look

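Over all 17751 genes, the interaction test in edgeR called the salt effect in ago4-2 different from that in Col-0 for 786, or 4.43%. Among the 9 members and the 35 genes named from the lists, 11 of 44 were called. The 35 had been taken for small adjusted p-values in a salt effect, so their count cannot be read against that share. The one member was PER1, with a difference of 1.086 log2 units (adjusted p = 0.0428), lost without any 1 of 5 of the 8 libraries compared (adjusted p = 0.114 to 0.168).

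Higher salt effects in ago4-2 were also found for MSD2, a manganese superoxide dismutase-like gene (1.730, edgeR adjusted p = 0.00748), the metal transporter gene YSL2 (1.390, adjusted p = 0.039) and ABI5 (0.725, adjusted p = 0.0113). The YSL2 call was lost without any 1 of 6 of the 8 libraries (adjusted p = 0.0565 to 0.202) and that of ABI5 without any 1 of 3 (adjusted p = 0.0518 to 0.0719). The MSD2 call held without each of the 8 libraries.

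Lower salt effects were found for PETE2 (-1.983, edgeR adjusted p = 1.82e-05) and for the glycolate oxidases of photorespiration, GOX1 (-0.777, adjusted p = 0.00385) and GOX2 (-0.614, adjusted p = 0.0129). PETE2 and GOX1 held without each of the 8 libraries, and the GOX2 call was lost without any 1 of 4 (adjusted p = 0.0509 to 0.085). GOX1 and GOX2 are near-identical copies, as are 2CPB and its homologue 2CPA to a lesser degree, so their reads may be shared and their values are uncertain. Among the peroxiredoxins the differences were -1.887 for PRXIIC (adjusted p = 0.0227), -0.759 for the chloroplast PRXQ (adjusted p = 0.0254) and -0.469 for the chloroplast 2CPB (adjusted p = 0.0491). Their calls were lost without any 1 of 6 libraries for PRXIIC (adjusted p = 0.056 to 0.125), 5 for PRXQ (adjusted p = 0.0517 to 0.125) and all 8 for 2CPB (adjusted p = 0.0657 to 0.196). VTC4, of ascorbate synthesis, differed by -0.716 (adjusted p = 0.0369), lost without any 1 of 7 of the 8 libraries (adjusted p = 0.0512 to 0.173).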

How the results depend on the processing

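With 2 libraries a group, many calls of small changes depended on the processing. Some calls of larger changes did too, among them the ago4-2 minus Col-0 differences of PRXIIC (-1.887), YSL2 (1.390) and PER1 (1.086). Over the values of members given here, 539 of the recomputed values kept direction and side of the threshold, 49 lost the call, 18 gained one and 4 reversed; for other named genes 433 kept it, 92 lost it and 2 gained one. Scaling by DESeq2 size factors in place of TMM moved the median of all genes by at most 0.019 log2 units. The FSD1 and PER1 salt calls in all 3 genotypes, and the FSD1 calls of both mutants against Col-0 on both media, were kept throughout. The authors' deposited false discovery rates were above 0.05 for some calls made here. For salt in ago4-2 they were 0.213 for CSD2, 0.0509 for CSD3 and 0.055 for CAT1, and in ago4-3 0.0547 for CAT1. For ago4-2 against Col-0 on control medium they were 0.152 for CSD1, 0.146 for CSD2 and 0.244 for APX1. Uncalled here but under 0.05 there were CAT2 with salt in Col-0 (0.0294), and CSD2 (0.0492) and PER1 in ago4-3 on control medium. The labels do not say whether the replicate numbers pair libraries across groups. Deviations of same-numbered libraries correlated at -0.393 to 0.238, which cannot settle pairing with 2 libraries a group. With the numbers as a replicate block, edgeR called 0 members in place of 1 for the salt effect of ago4-2 minus Col-0 (PER1, adjusted p = 0.067). The block also ended the calls of CAT2 under salt in ago4-3 (0.0661) and of APX1 in ago4-2 against Col-0 on control medium (0.0583). Among other named genes it ended the salt calls of SAPX and MDAR2 in Col-0 (0.0628 and 0.0503) and MDAR3 in ago4-2 (0.0624), APX6 in ago4-2 against Col-0 on NaCl (0.0604), and the interactions of VTC4, 2CPB and YSL2 (0.0565, 0.0707 and 0.0587). The cause of the changes below was not tested.

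Fitting only the groups compared called 3 members and 833 genes in ago4-2 against Col-0 on control medium (6 and 1498 in the full fit), 4 members and 586 genes in ago4-3 against Col-0 on control medium (1 and 294), 657 genes in ago4-3 against ago4-2 on control medium (1597) and 9 genes for ago4-3 minus Col-0 (4). DESeq2 called 2 members and 465 genes in ago4-3 against Col-0 on control medium, 348 genes on NaCl (211), 4 members in ago4-3 against ago4-2 on control medium (2), and 1 member and 54 genes for ago4-3 minus Col-0 (0 and 4). The filter of 10 counts in every library left 126 genes called in ago4-3 against Col-0 on NaCl.

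Leaving out 1 library at a time, the members called ranged from 5 to 7 in ago4-3, 6 to 7 in ago4-2 and 4 to 8 in Col-0 for the salt effect, and the genes called from 2128 to 3113 (4089 in the full fit), 3916 to 5880 (6238) and 1390 to 2441 (3222). On control medium they ranged from 1 to 2 members and 92 to 306 genes in ago4-3 against Col-0, 3 to 6 and 533 to 2420 in ago4-2 against Col-0, and 2 to 2 and 879 to 1661 in ago4-3 against ago4-2. On NaCl these were 1 to 2 and 87 to 149, 3 to 4 and 2804 to 4223 (5209), and 2 to 3 and 1867 to 2286 (3709). For the salt effect of ago4-3 minus Col-0 they were 0 to 1 and 1 to 19, and for ago4-2 minus Col-0 0 to 2 and 254 to 1129 (786). The uncalled differences on NaCl that changed sign were those of CSD1 (-0.0369 to 0.3621) and CAT3 (-0.3370 to 0.0791) in ago4-2 against Col-0 and PER1 in ago4-3 against Col-0 (-0.1756 to 0.3073). FSD1 in ago4-2 on NaCl rests on 64 and 60 counts, the smallest counts behind a called member.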

Other observations

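MSD2, a manganese superoxide dismutase-like gene, and the peroxiredoxin PRXIIC lie outside the members described above and differed between the genotypes. MSD2 had 49.8 and 55.3 CPM in ago4-2 on NaCl, against 3.41 and 4.99 CPM in Col-0 on NaCl, and 11.9 and 13.4 CPM in ago4-2 on control medium, against 3.19 and 3.60 CPM in Col-0 on control medium. It rose with salt in ago4-2 by log2 2.05 (edgeR adjusted p = 5.52e-06), and it was higher than in Col-0 by 3.65 ± 0.23 on NaCl (adjusted p = 5.81e-08) and 1.92 ± 0.24 on control medium (adjusted p = 0.000106). In ago4-3 its 4 libraries held 1.84 to 5.52 CPM, against 3.19 to 4.99 CPM in the 4 Col-0 libraries.

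PRXIIC was low in ago4-3 on both media, with 0.583 and 0.137 CPM on NaCl, against 8.26 and 8.70 CPM in Col-0 on NaCl, and 0.532 and 0.892 CPM on control medium, against 6.30 and 8.36 CPM in Col-0 on control medium (log2 -4.67 ± 0.40 and -3.40 ± 0.36, edgeR adjusted p = 5.61e-06 and 7.5e-05). In ago4-2 it had 1.43 and 1.40 CPM on NaCl and 4.84 and 4.21 CPM on control medium. The ago4-3 levels rest on 4 to 17 counts a library. PRXIIC is close in sequence to PRXIIB and PRXIID, and its values are uncertain because the treatment of reads shared among them was not stated.

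Against Col-0 on NaCl, where edgeR called 29.3% of all genes in either direction and 14.4% lower, the 5 measured ascorbate peroxidases other than APX1 were lower in ago4-2. The log2 differences were -0.90 for APX4, -0.75 for the thylakoid TAPX, -0.44 for SAPX, -0.42 for APX6 and -0.37 for APX3 (adjusted p = 0.00128, 0.0253, 0.0019, 0.0454 and 0.0106). APX4, TAPX and SAPX are chloroplast proteins, and of the 5 seedling photosynthesis genes 4 were lower and none higher in the same comparison, with a median of -1.69. Their summed level was 3830 and 4152 CPM in ago4-2 on NaCl, against 4583 and 5607 CPM in Col-0 on NaCl, and its part in the peroxidase result was not tested. The calls of APX4 and SAPX held with each library left out. The TAPX call was lost without any 1 of the 4 libraries compared (adjusted p = 0.0518 to 0.155), and that of APX3 without Col-0 NaCl replicate 2, ago4-2 NaCl replicate 1 or ago4-2 NaCl replicate 2 (adjusted p = 0.0636, 0.066 and 0.0685). The APX6 call was lost without Col-0 NaCl replicate 1, Col-0 NaCl replicate 2 or ago4-2 NaCl replicate 1 (adjusted p = 0.179, 0.0829 and 0.384), the log2 value being -0.22 without the last.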
